A study of Mus musculus with 9 samples.

Results

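The genes of MHC class I and class II antigen presentation were followed in dendritic cells (DCs) of mouse spleen that lacked or carried the transcription factor C/EBPβ. The list held 34 genes, chosen by function but with earlier results of these data known: 13 for the class II arm and 21 for the class I arm. A gene was measured through its brightest probe among those annotated with its symbol alone, which gave 32 of the 34 genes a value, 12 in the class II arm and 20 in the class I arm, out of 22180 genes tested. Cd74, the invariant chain that escorts class II molecules, and H2-D1, a class I heavy chain, appeared here only on probes shared with another symbol and have no value.

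The study asked what C/EBPβ does for the maturation and fate of DCs at rest. The 6 control samples carried intact C/EBPβ (genotype C/EBPbeta+/+), and the 3 knockout samples (C/EBPbeta-/-) came from mice with CD11c.Cre and loxP-flanked C/EBPβ alleles, so that deletion took place in cells using the CD11c promoter. All 9 samples were untreated, with the strain given as C57BL/6. The protocols name both C57BL/6 and CD11c.Cre mice as sources besides the knockouts, the design text names only CD11c-Cre-eGFP mice as controls, and no label links a control sample to its source, so Cre and the deletion cannot be told apart as far as controls lacked Cre. The animals' age and whether samples came from separate mice are not given, so the p-values rest on sample-to-sample spread that may be technical in origin. The cells were sorted as CD11c+ and MHC class II+ to a stated purity above 95%. The gate therefore used the protein product of several of the genes described here, and cells with little surface class II were not collected.

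In class II presentation, proteins taken up by the cell are cut in endosomes, the invariant chain is degraded, the editor H2-M exchanges the fragment left in the groove for peptide, and H2-O restrains H2-M. The whole set of class II genes is switched on by CIITA, which has no DNA contact of its own and sits on the RFX complex and NF-Y at the X and Y boxes of their promoters. In class I presentation, the proteasome, remodelled in DCs by the immunoproteasome subunits, cuts cytosolic proteins, TAP pumps the peptides into the endoplasmic reticulum, and tapasin with calreticulin and ERp57 loads them on heavy chain and beta-2 microglobulin. NLRC5, a relative of CIITA, plays the corresponding role on class I promoters.

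Values are log2 intensities from single-channel arrays, in which 1 unit is a factor of 2, and array medians lay between 5.49 and 5.56. Pairwise correlations between samples were 0.987 to 0.996. Cebpb itself lay between 6.64 and 7.15 in the controls, with a median of 6.77, and at 5.37, 5.60 and 5.42 in the knockouts. The difference was -1.35 (SE 0.11, adjusted p = 0.00074), and every knockout lay below every control. Differences are knockout minus control from a limma fit over all genes, two-sided, with Benjamini-Hochberg adjustment over the 22180 genes and a threshold of 0.05. The DC markers were bright in both groups: Itgax, the CD11c gene, averaged 12.16 in controls and 12.15 in knockouts, and Flt3, the DC growth factor receptor, 11.52 and 11.56. Zbtb46, a transcription factor of conventional DCs, averaged 9.29 and 9.15, with 2 of the 3 knockouts below every control (difference -0.13, SE 0.062, adjusted p = 0.36).

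None of the 32 measured presentation genes passed the threshold, where 0.906% of all genes did (201 genes, 92 up in the knockout and 109 down; the total was 33 to 332 with 1 sample left out). At an unadjusted p under 0.05, 7 of the 32 were counted, 1 higher (Nlrc5) and 6 lower (Psmb10, H2-Oa, Rfx5, Psmb9, Psmb8 and Erap1), against 14.3% of all genes. The median difference over the 32 was -0.046, with 11 above 0 and 21 below (65.6%), and over all genes it was -0.014, with 9984 above and 12196 below (55.0%). Among the 11090 genes brighter than the median, which hold all 32, 64.0% lay below 0 and the median was -0.045. The lean of the 32 below 0 was thus close to that of the brighter genes. Differences of the 32 ran from -0.26 to 0.43. The 95% confidence interval lay within 1.5-fold in either direction for 31 of the 32, all but Nlrc5, as it did for 93.9% of all genes, so this narrow range was shared with most of the array. In 5 of the 32 the knockout samples all lay outside the control range (H2-Aa and Nlrc5 above; H2-Oa, Psmb9 and Psmb10 below), where 7.39% of all genes did so. The arms had like medians, -0.049 for class II and -0.046 for class I.

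**Figure D1:**
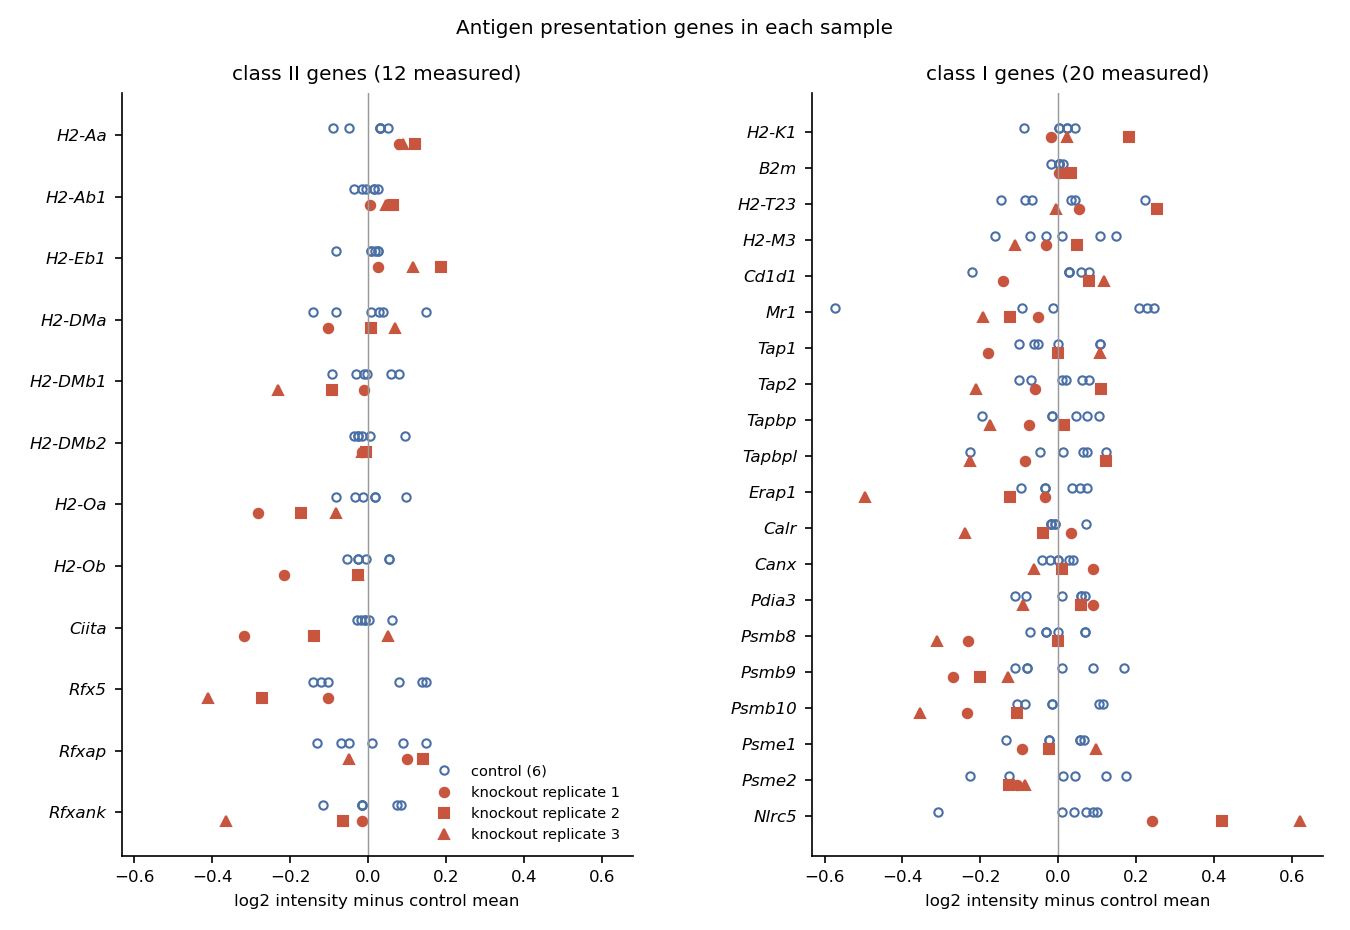
Log2 intensity of each measured presentation gene in each sample, minus the mean of the 6 controls, with class II genes on the left and class I genes on the right. Open circles are controls, filled symbols the 3 knockout samples; most knockout values lie among the controls, while the 3 Nlrc5 values lie to the right of every control and Psmb9 and H2-Oa to the left.

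Promoters of class II chain and editor genes are shown here because genes that share the Y box core, GATTGG, had differences on both sides of 0. The X box stretch marked here was found within 250 bases of the start in only 4 of 7 such genes. It was absent from H2-Aa, H2-Oa and H2-DMa. The lines give the last 130 bases before the RefSeq start on build GRCm38.p6, read 5′ to 3′ along the gene: H2-Aa is chr17:34287824-34287953 (minus strand), H2-Eb1 chr17:34305737-34305866, H2-DMb1 chr17:34153061-34153190, H2-DMb2 chr17:34145119-34145248, H2-Oa chr17:34092249-34092378 and H2-Ob chr17:34238775-34238904 (all plus strand). Capitals mark the Y box core GATTGG or its reverse complement, the X box stretch AACNNATGA, and in H2-Aa the cyclic AMP element TGACGTCA.
H2-Aa: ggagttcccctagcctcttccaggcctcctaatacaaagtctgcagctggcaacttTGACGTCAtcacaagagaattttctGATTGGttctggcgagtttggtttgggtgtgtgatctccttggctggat
H2-Eb1: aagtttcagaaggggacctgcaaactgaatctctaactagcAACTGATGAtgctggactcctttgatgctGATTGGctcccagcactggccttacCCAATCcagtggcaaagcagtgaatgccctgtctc
H2-DMb1: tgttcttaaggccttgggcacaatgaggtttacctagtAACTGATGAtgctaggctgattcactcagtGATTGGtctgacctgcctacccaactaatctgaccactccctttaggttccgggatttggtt
H2-DMb2: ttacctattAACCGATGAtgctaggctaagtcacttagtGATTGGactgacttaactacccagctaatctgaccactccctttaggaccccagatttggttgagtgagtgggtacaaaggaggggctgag
H2-Oa: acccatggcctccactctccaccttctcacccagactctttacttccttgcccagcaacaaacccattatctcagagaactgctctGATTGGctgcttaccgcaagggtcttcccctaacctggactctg
H2-Ob: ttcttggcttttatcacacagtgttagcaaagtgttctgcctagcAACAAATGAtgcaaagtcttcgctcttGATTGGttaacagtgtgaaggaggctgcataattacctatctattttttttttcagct
In H2-DMb1, H2-DMb2, H2-Eb1 and H2-Ob the X stretch began 30, 30, 29 and 27 bases before the Y box core. H2-DMa has 2 starts in the table and is not printed, since neither of its stretches of this length held a marked motif; its Y box core lay 199 bases before 1 of them. Within 250 bases before the start, on either strand, GATTGG was present in 7 of the 7 class II chain and editor genes with a promoter in the table, in 10 of the 19 other presentation genes with one, and in 16.6% of 27025 genes. The X stretch, whose letters were chosen after these sequences were read, was present in 5 of the 26 presentation genes with a promoter (H2-DMb1, H2-DMb2, H2-Eb1, H2-Ob and Mr1) and in 2.87% of all genes. A C/EBP-type motif, TTGCNNAA, searched on both strands, was present in 2 of the 26, Canx and H2-T23, and in 10.8% of all genes. These matches describe letters in a window and not occupancy.

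The class II chains were near the top of the array's range in both groups. H2-Ab1, the beta chain of I-A, ranked 3 of 22180 genes by mean intensity, H2-Aa, its alpha chain, ranked 19, and H2-Eb1, the beta chain of I-E, ranked 31. The brightest value on any of the 9 arrays was between 13.76 and 13.87. H2-Ab1 ran from 13.65 to 13.71 in the controls (median 13.69) and stood at 13.69, 13.75 and 13.73 in the knockouts. That is 0.09 below the brightest gene on average, with little room above it. H2-Aa ran from 13.08 to 13.22 in the controls (median 13.20) and stood at 13.25, 13.29 and 13.26 in the knockouts, above every control by a gap of 0.03. H2-Eb1 ran from 12.84 to 12.95 in the controls (median 12.94) and stood at 12.95, 13.11 and 13.04 in the knockouts. Knockouts 2 and 3 lay above every control in all 3 chains, knockout 1 lay among the H2-Ab1 controls and level with the highest H2-Eb1 control, and the differences were small: 0.094 (SE 0.054, 95% interval -0.026 to 0.21, adjusted p = 0.48) for H2-Aa, 0.036 (SE 0.049, interval -0.072 to 0.15, adjusted p = 0.81) for H2-Ab1 and 0.11 (SE 0.057, interval -0.016 to 0.23, adjusted p = 0.43) for H2-Eb1.

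How far genes of like intensity differed in this comparison is given beside them, which does not show how far bright probes can move. The 28 genes with a mean above 13, which include H2-Aa, H2-Ab1 and B2m, had a median SD over the controls of 0.048 and a median absolute difference of 0.047; the largest difference among them was 0.17 and none passed the threshold. Of those 28 genes only 5 had a difference below 0, so a small positive value was the usual one at that height. Between 9 and 11, where H2-DMb2, H2-Ob, Rfx5, Psmb9, Psmb10 and Nlrc5 lie, 2685 genes had a median control SD of 0.092 and 41 passed. Signal saturation of the class II chains and of B2m was not tested.

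**Figure D2:**
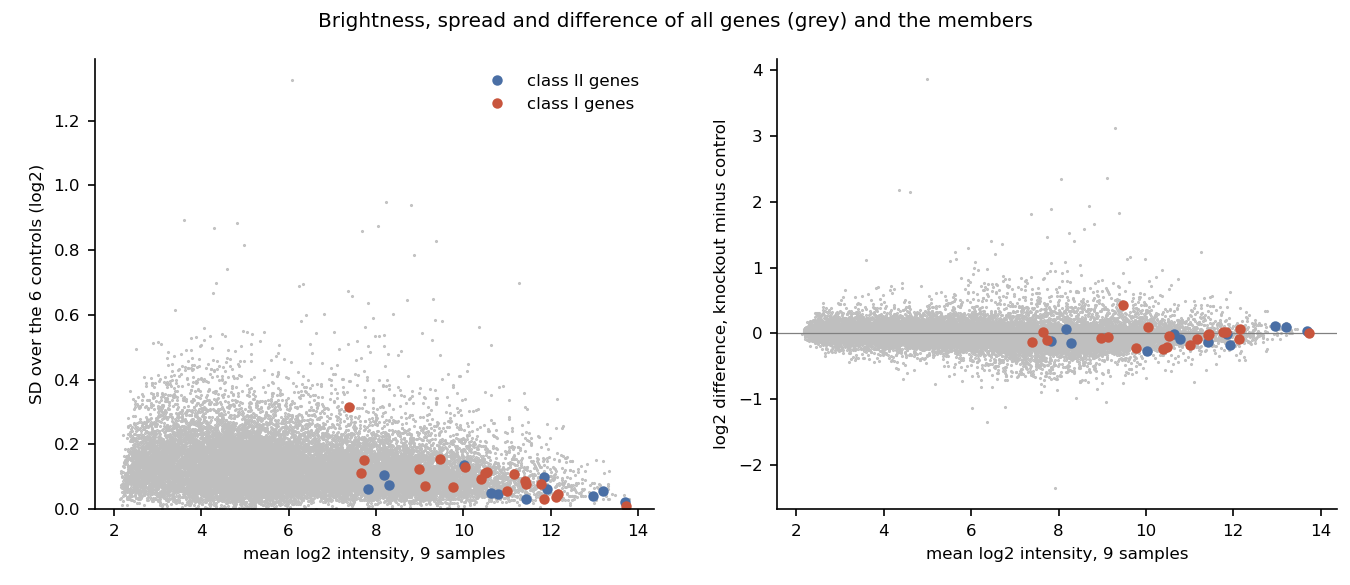
Left, SD over the 6 controls against mean log2 intensity of the 9 samples for 22180 genes (grey), with class II genes in blue and class I genes in red; right, the log2 difference, knockout minus control, on the same horizontal axis. Both the spread and the differences narrow above 13, where H2-Aa, H2-Ab1 and B2m lie.

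Beside 55.0% of all genes and 64.0% of the 11090 brighter genes, the peptide editors had 5 of 5 differences below 0. Their median was -0.089 and none passed the threshold. The count was 4 of 5 without knockout 1 (median -0.025), without control 2 or without control 4, where H2-DMa or H2-DMb2 turned to between 0.008 and 0.041. H2-Oa, the alpha chain of the restraining H2-O dimer, ran from 11.90 to 12.08 in the controls (median 11.98) and stood at 11.70, 11.81 and 11.90 in the knockouts. The groups did not overlap, by a gap of 0.006 between the highest knockout and the lowest control. The difference was -0.18 (SE 0.063, interval -0.32 to -0.044, adjusted p = 0.21). H2-Ob, its beta chain, was at 10.76 to 10.87 in the controls and at 10.60, 10.79 and 10.79 in the knockouts, so only 1 sample was low (difference -0.089, SE 0.062, adjusted p = 0.58). H2-DMa, the alpha chain of the H2-M editor, differed by -0.008 (SE 0.072, interval -0.17 to 0.15). H2-DMb1 and H2-DMb2 encode near-identical beta chains, and probes may read both. H2-DMb2 differed by -0.010 (SE 0.053), with all 3 knockouts between 10.63 and 10.64. H2-DMb1 differed by -0.11 (SE 0.065, adjusted p = 0.51), with knockout replicate 3 lowest at 7.63 against controls of 7.77 to 7.94.

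Of the 4 class II regulators, 3 were below 0 and 1 above, and none passed. Ciita, the master coactivator, was tight in the controls at 11.45 to 11.54 (median 11.47) and spread in the knockouts at 11.16, 11.34 and 11.53. Knockouts 1 and 2 lay below every control and the other 1 near the top of them, with a difference of -0.14 (SE 0.075, interval -0.30 to 0.028, adjusted p = 0.45). Without knockout 1 it was -0.046, and without knockout 3 it was -0.23. Rfx5, the DNA-binding subunit of the RFX complex, ran from 9.96 to 10.25 (median 10.09) and stood at 10.00, 9.83 and 9.69 in the knockouts. Knockouts 2 and 3 lay below every control, and the difference was -0.26 (SE 0.093, interval -0.47 to -0.054, adjusted p = 0.23), the most negative among the 32 genes. Rfxank, which joins RFX to its partners, differed by -0.15 (SE 0.082, adjusted p = 0.46), with knockout 3 at 7.98 against controls of 8.23 to 8.43. Rfxap, the third subunit, differed by 0.065 (SE 0.076, adjusted p = 0.77) and its groups overlapped.

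For the class I chains the promoter of B2m, beta-2 microglobulin, is shown because it carries the same Y box core as the class II genes (capitals; chr2:122147557-122147686, plus strand, GRCm38.p6, last 130 bases before the RefSeq start).
B2m: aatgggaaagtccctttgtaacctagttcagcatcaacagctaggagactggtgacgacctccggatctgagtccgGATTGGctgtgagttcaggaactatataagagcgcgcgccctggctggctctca
B2m ranked 2 of 22180 genes and ran from 13.71 to 13.74 in the controls (median 13.73), with knockouts at 13.73, 13.76 and 13.74. It lay 0.05 below the brightest gene, and its difference was 0.014 (SE 0.048, interval -0.091 to 0.12, adjusted p = 0.93). H2-K1, the classical heavy chain, ran from 12.05 to 12.18 in the controls (median 12.15) and stood at 12.12, 12.32 and 12.16 in the knockouts. Only knockout 2 lay above the controls (difference 0.061, SE 0.062, interval -0.075 to 0.20, adjusted p = 0.72). Class I heavy chains are close copies of each other, so the H2-K1 value may hold signal from others.

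The class I-like molecules, which present fixed ligands, formylated peptides or lipids, were split 2 above and 2 below 0. H2-T23, the Qa-1 molecule read by NK receptors, differed by 0.097 (SE 0.089, interval -0.099 to 0.29). H2-M3, which binds formylated peptides, differed by -0.037 (SE 0.076), and Cd1d1, which presents lipids to NKT cells, by 0.017 (SE 0.083, interval -0.17 to 0.20). Mr1, which presents vitamin B metabolites to MAIT cells, was the least precise member, with controls from 6.86 to 7.68 and a difference of -0.12 (SE 0.16, interval -0.48 to 0.23). None had an adjusted p below 0.69.

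Beside 55.0% of all genes and 64.0% of the 11090 brighter genes, the genes of peptide transport and loading had 5 of 5 differences below 0. Their median was -0.064. The count was 3 of 5 without knockout 3, where Tap2 was at 0.024 and Tapbpl at 0.015 (median -0.029), and 4 of 5 without knockout 1, where Tap1 was at 0.051. Tap1 and Tap2, the paired subunits of the peptide pump, differed by -0.027 (SE 0.077) and -0.054 (SE 0.076). Tapbp, tapasin, differed by -0.078 (SE 0.077) on its brightest probe and by -0.002 (SE 0.11) on its second, and Tapbpl, the related editor TAPBPR, by -0.064 (SE 0.093). Erap1, which trims peptides in the endoplasmic reticulum, ran from 9.75 to 9.92 in the controls (median 9.85) and stood at 9.81, 9.72 and 9.35 in the knockouts. Its difference of -0.22 (SE 0.094, interval -0.43 to -0.009, adjusted p = 0.33) was -0.078 without knockout 3, the other 2 lying within or just under the controls. The chaperones Canx and Pdia3 differed by 0.016 (SE 0.055) and 0.019 (SE 0.067). Calr, calreticulin, differed by -0.081 (SE 0.066), with knockout 3 lowest at 11.91 against controls of 12.13 to 12.22.

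The immunoproteasome and its PA28 cap had 5 of 5 differences below 0, beside 64.0% of the 11090 brighter genes. Their median was the lowest of the roles at -0.18, and none passed the threshold. Without knockout 3 the median was -0.12, with 5 of 5 below 0; without control 2, 4 or 6 or knockout 1 or 2 it was 4 of 5 below 0, with Psme1 above 0. Psmb8 (LMP7), Psmb9 (LMP2) and Psmb10 (MECL-1) are the catalytic subunits that replace their constitutive counterparts. Psmb10 ran from 10.37 to 10.59 in the controls (median 10.46) and stood at 10.24, 10.37 and 10.12 in the knockouts. The highest knockout lay 0.001 under the lowest control, and the difference was -0.23 (SE 0.075, interval -0.40 to -0.065, adjusted p = 0.19). Psmb9 ran from 10.45 to 10.73 in the controls (median 10.53) and stood at 10.29, 10.36 and 10.43 in the knockouts. All 3 lay below the controls, by a gap of 0.019, with a difference of -0.20 (SE 0.075, interval -0.36 to -0.035, adjusted p = 0.25). Psmb8 ran from 10.99 to 11.13 in the controls (median 11.04) and stood at 10.83, 11.06 and 10.75 in the knockouts. Here knockout 2 lay among the controls (difference -0.18, SE 0.073, interval -0.34 to -0.015, adjusted p = 0.30). Psme1 and Psme2, the PA28 subunits that open the proteasome gate, differed by -0.003 (SE 0.066) and -0.11 (SE 0.087, adjusted p = 0.65).

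The constitutive proteasome lay on the same side. None of the genes in its list passed the threshold. Beside 64.0% of the 11090 brighter genes, 15 of its 16 measured genes had differences below 0, with a median of -0.11. Without knockout 3 it was 12 of 16 with a median of -0.044, Psma1 going from -0.19 to -0.045, Psma2 from -0.16 to -0.056, Psmb5 from -0.19 to -0.057 and Psmb7 from -0.036 to 0.035. The subunits that Psmb8, Psmb9 and Psmb10 displace were read as exchange partners, a choice made after the values were seen. Psmb5, Psmb6 and Psmb7 differed by -0.19 (SE 0.11), -0.10 (SE 0.068) and -0.036 (SE 0.096). The immunoproteasome subunit minus its partner, each first set to its own control mean, shifted by 0.01 for Psmb8 and Psmb5 (SD 0.12 over controls and 0.11 over knockouts), by -0.10 for Psmb9 and Psmb6 (SD 0.080 and 0.074), and by -0.19 for Psmb10 and Psmb7 (SD 0.16 and 0.075). The Psmb10 shift was little more than the control SD of that pair, and these shifts carry no test.

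**Figure D3:**
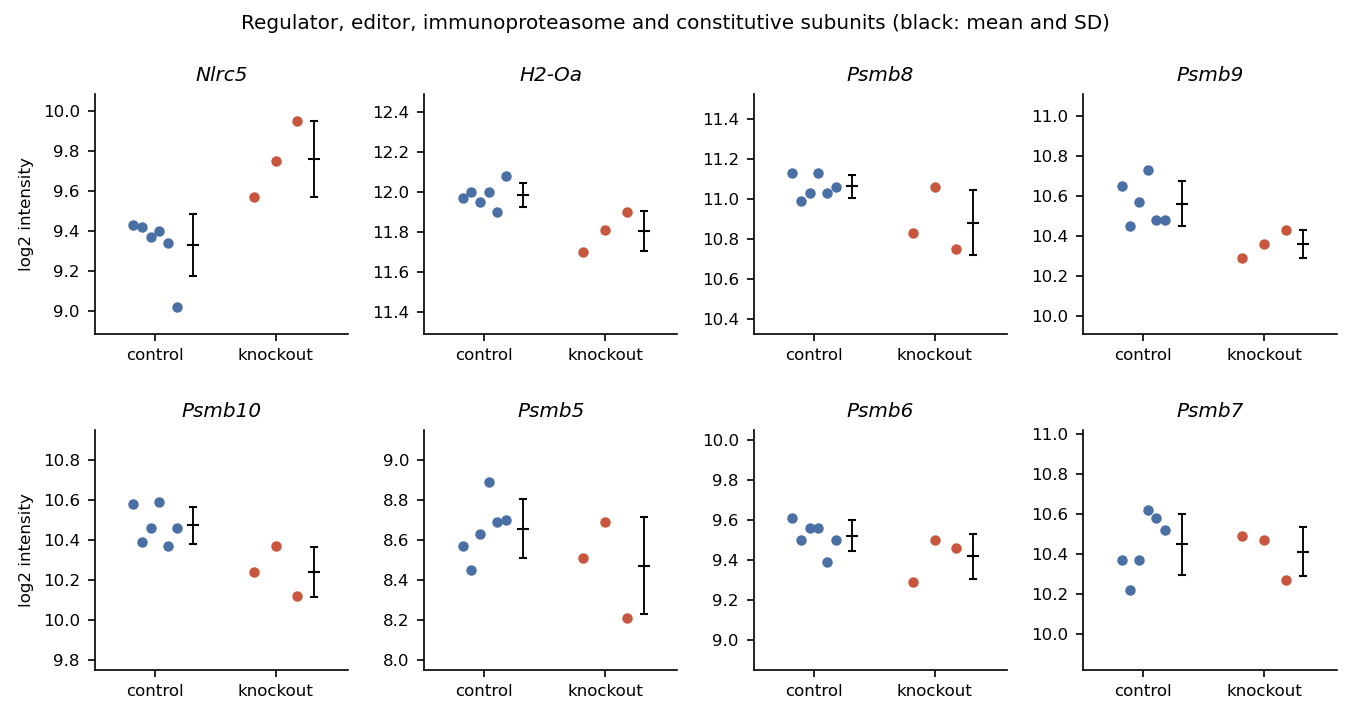
Log2 intensity of Nlrc5, H2-Oa, the 3 immunoproteasome subunits and their constitutive partners in each of the 6 control (blue) and 3 knockout (red) samples, with the mean and SD in black; every panel spans the same length of the log2 axis. Nlrc5 knockouts lie above the controls, Psmb9 and Psmb10 knockouts at or below the lowest control, and Psmb5, Psmb6 and Psmb7 overlap.

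Psmb9 and Tap1 lie head to head on chromosome 17 and share the 225 bases between their starts, which are shown because the genes read outward from the same stretch (chr17:34187331-34187555, plus strand, GRCm38.p6, from RefSeq; capitals mark CCAATC, the reverse complement of the Y box core).
Psmb9-Tap1: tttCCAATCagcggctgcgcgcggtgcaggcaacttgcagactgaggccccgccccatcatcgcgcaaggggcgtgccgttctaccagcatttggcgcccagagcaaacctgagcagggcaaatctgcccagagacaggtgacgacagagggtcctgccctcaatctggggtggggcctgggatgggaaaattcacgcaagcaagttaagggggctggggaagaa
Psmb9 differed by -0.20 with no overlap of the groups, and Tap1 by -0.027, with controls from 11.32 to 11.53 and knockouts at 11.24, 11.42 and 11.53. The difference between these neighbours was not tested. Of the 34 genes, 17 lie on chromosome 17, which holds the MHC, and 16 of those were measured, with a median of -0.032 and 11 below 0. The 16 measured genes on other chromosomes had a median of -0.073 and 10 below 0.

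Nlrc5, the class I transactivator, had the largest difference of the 32. It ran from 9.02 to 9.43 in the controls (median 9.39) and stood at 9.57, 9.75 and 9.95 in the knockouts. All 3 knockouts lay above all 6 controls, by a gap of 0.14, and the difference was 0.43, or 1.35-fold (SE 0.11, interval 0.20 to 0.66). Its adjusted p was 0.089 over 22180 genes and 0.042 when only the 11090 brighter genes were tested. The adjusted p ranged from 0.042 to 0.46 over 15 alternative fits, and from 0.061 to 0.24 with 1 sample left out. The genes that NLRC5 is known to drive lay on both sides of 0: H2-K1 and B2m differed by 0.061 and 0.014, and Tap1 and Psmb9 by -0.027 and -0.20. For H2-K1, B2m and Tap1 the difference was smaller than its SE (0.062, 0.048 and 0.077), so their side of 0 is uncertain. B2m also lay 0.05 below the brightest gene, with little room above it. A link between Nlrc5 and these genes was not tested.

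**Figure D4:**
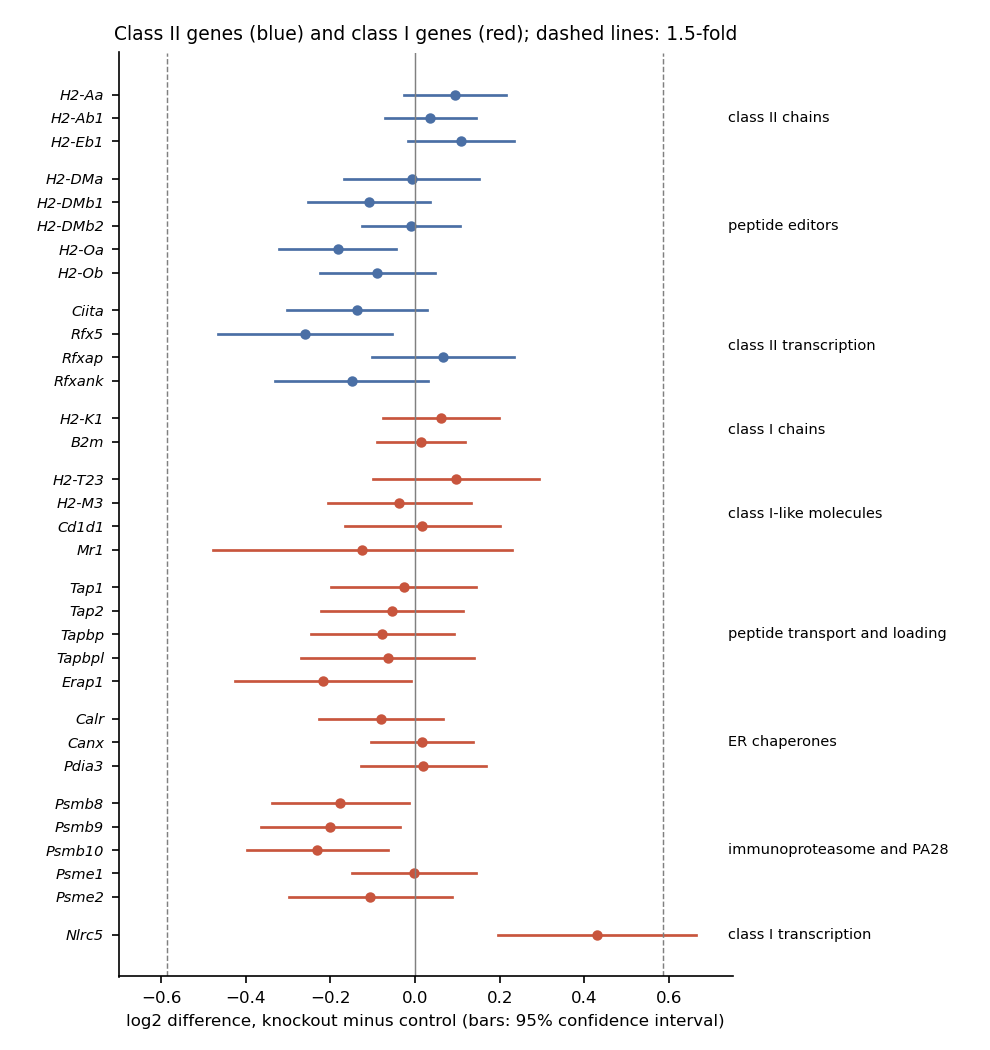
Log2 difference, knockout minus control, of the 32 measured presentation genes with its 95% confidence interval from the limma fit, ordered by role, class II in blue and class I in red; the dashed lines mark 1.5-fold. Every interval but that of Nlrc5 lies between the dashed lines, and those of 7 genes do not cross 0.

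Around the presentation genes, 7 companion lists covered processing, related class I genes, the proteasome, folding, upstream regulators, interferon response and cross-presentation. Of their 115 measured genes 3 passed the threshold (2.61%, beside 0.906% of all genes), all higher in the knockout. The lists were chosen with earlier results of these data known, so their larger share cannot be read as a result. Lgmn, legumain, an endosomal protease that cuts antigens and the invariant chain, was at 9.79 to 10.16 in the controls and rose to 10.80, 10.81 and 10.77 (difference 0.86, SE 0.092, adjusted p = 0.0042). It belonged to the class II processing list, where 9 of 12 were above 0 and the median was 0.11; the cathepsins Ctsl and Ctsd were at 0.46 (adjusted p = 0.071) and 0.36 (adjusted p = 0.26). Prdm1, the repressor Blimp-1, which acts on Ciita promoters, was at 7.48 to 7.76 in the controls and rose to 8.22, 8.18 and 8.18 (difference 0.56, SE 0.068, adjusted p = 0.0059). It was the only one of 20 upstream regulators past the threshold, and Irf4 was at 0.24 (adjusted p = 0.43). Rsad2, the antiviral enzyme viperin, was at 7.45 to 7.98 in the controls and rose to 8.49, 8.27 and 8.27 (difference 0.57, SE 0.11, adjusted p = 0.048), and passed in none of the 9 fits with 1 sample left out, where adjusted p was 0.061 to 0.15. The other 19 measured interferon-responsive genes did not pass, the lowest being Cxcl10 at 0.65 (adjusted p = 0.066). H2-Q10, a class I heavy chain known as a secreted form of liver, was at 8.84 to 9.79 in the controls and at 10.31, 10.05 and 10.08 in the knockouts (difference 0.79, SE 0.18, adjusted p = 0.073) and did not pass. With the mean of its probes the H2-Q10 difference was 0.55. As for H2-K1, its value may hold signal from other heavy chains. None of the 12 measured cross-presentation genes passed, Syk being at 0.26 (adjusted p = 0.13), nor did any of the 15 genes of folding in the endoplasmic reticulum.

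Bulk RNA cannot tell fewer cells of a type from less RNA per cell, and the sort could hold other class II+ cells. Over the samples, the mean of the class II genes relative to controls was -0.071, -0.021 and -0.068 in the knockouts against -0.048 to 0.046 in the controls, and that of class I genes -0.056, 0.029 and -0.085 against -0.045 to 0.089. The 9 measured monocyte markers were all above 0, as were 9984 of all 22180 genes. Their mean lay at 0.25, 0.34 and 0.52 in the knockouts against -0.16 to 0.15 in the controls. Ace rose by 1.16 (SE 0.15, adjusted p = 0.0096). The 12 red pulp macrophage markers were also all above 0, at 0.23, 0.76 and 0.68 against -0.58 to 0.58. The 13 measured B cell markers were at 0.14, -0.14 and 0.70 against -0.060 to 0.12. The 6 pDC markers were at 0.033, 0.055 and 0.45 against -0.068 to 0.26. The 8 cDC2 markers were at 0.093, -0.043 and -0.25 against -0.063 to 0.088, with a median difference of -0.19. Of the 8, 6 lay below 0, beside 55.0% of all genes and 64.0% of the 11090 brighter genes. Dtx1 fell by 0.46 (SE 0.068, adjusted p = 0.018), and Clec4a4 lay below every control at 10.85, 10.47 and 10.61 (adjusted p = 0.12). The other 2 cDC2 markers lay above 0. The larger of these differences was 0.72, with all 3 knockouts above every control, and it did not pass the threshold. The 7 measured cDC1 markers were at -0.12, 0.14 and -0.056 in the knockouts against -0.19 to 0.19 in the controls. Of the 7, 6 lay below 0, with differences from -0.22 to 0.51 and a median of -0.059, and none passed. Knockout 3, with the highest B cell and pDC and the lowest cDC2 value, was the lowest knockout for 17 of the 32 presentation genes and the highest for 9. Knockout 1 was close to that, lowest for 14 and highest for 8, while knockout 2 was lowest for 1 and highest for 15. Of the 6 genes lower at an unadjusted p under 0.05, knockout 3 was lowest for Erap1, Rfx5, Psmb8 and Psmb10 and highest for H2-Oa and Psmb9. It was also highest for Nlrc5. The mean level of these lists was 8.64 to 8.96 in controls and 9.06 to 9.33 in knockouts for monocytes, 8.0 to 9.15 and 8.80 to 9.33 for red pulp macrophages, and 7.36 to 7.54 and 7.27 to 8.11 for B cells, against a median gene of 5.93. The 6 neutrophil markers all lay under the median gene. The part of these other cells in any difference of the presentation genes was not tested.

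**Figure D5:**
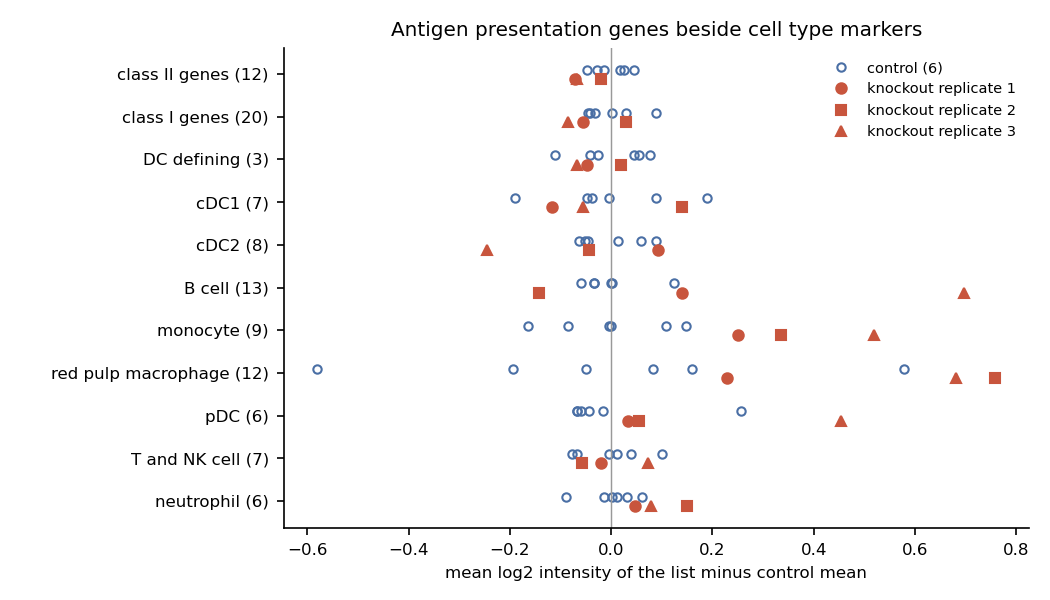
Mean log2 intensity of the class II genes, the class I genes and 9 cell type marker lists in each sample, relative to the control mean, with the number of measured genes in brackets. Open circles are the 6 controls; the monocyte mean of every knockout lies above the controls, while the class I and class II means stay within 0.1 of the control mean.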

How the data were processed

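Total RNA of sorted spleen DCs was measured on 9 single-channel arrays (6 control, 3 knockout, grouped by the genotype label). Each probe's deposited value is a log2 intensity that the authors made with RMA, per the submitters' processing notes; RMA evens the intensity distributions of the arrays, which would remove a shift shared by most genes, and compresses bright and dim probes. What settings RMA had, and which build the probes rest on, is not given in the sources used here.

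Of 41801 rows, 7329 held no value and 4 lacked some values, which left 34468 probes: 23521 with 1 symbol, 1814 with several and 9133 with none in the platform annotation. The brightest single-symbol probe stood for a gene (1082 genes had several). All 22180 genes were fitted together with limma 3.58.1 in R 4.3.3 (lmFit and eBayes, no covariate) with Benjamini-Hochberg adjustment at 0.05; the code was tested on simulated data. Precision is limited by the 9 arrays. Members and lists were chosen with earlier results of these data known. Named were every measured member, Cebpb, companion genes past 0.05 with up to 3 next by p, and the brightest or called markers. Promoters came from RefSeq (GRCm38.p6), with 26 of 34 members matched by symbol. Alternatives were array centring, a second quantile normalization, a trended robust variance, a replicate block, a filter on dim genes, the mean of a gene's probes, and leaving out each sample.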

Additional observations from a re-analysis of the deposited data

Results flagged for a closer look

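In 7 of the 32 presentation genes, 1 control sample stood apart from the other 5 by Dixon's criterion, where chance gives about 1 in 20 groups and 13.4% of all 22180 genes met the same criterion. H2-Eb1 was 12.84 in control 3 against 12.93 to 12.95 in the others, and Cd1d1 was 7.42 in the same sample against 7.67 to 7.72. H2-DMb2 was 10.74 in control 4 against 10.61 to 10.65. Control 5 had Ciita at 11.54 against 11.45 to 11.48, H2-K1 at 12.05 against 12.14 to 12.18, and Calr at 12.22 against 12.13 to 12.14. Nlrc5 was 9.02 in control 6 against 9.34 to 9.43 in the others.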

How the results depend on the processing

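Over 15 alternative fits no class II gene passed the threshold, and in class I 1 did so, Nlrc5 when only the 11090 genes brighter than the median were tested. The replicate numbers gave no sign of pairing (same-number correlations -0.14, -0.10 and 0.047, and -0.23 to 0.20 for other pairs). With 3 knockouts this cannot exclude pairing. Genes past the threshold numbered 125 after centring, 537 with the filter on dim genes (205 higher, 332 lower), 2 with the replicate block, and 33 to 332 with 1 sample left out: 332 without knockout 1, 33 without knockout 2, and 66, 73, 49, 64 and 60 without controls 1, 3, 4, 5 and 6. The 3 companion calls became 6 with the filter and 0 with the replicate block. In the block fit, controls 4, 5 and 6 had no knockout of the same number and added nothing to the difference. The class I median became 0.024 with the block and ran from -0.087 to -0.016 with 1 sample left out; the class II median ran from -0.068 to -0.018. Of 480 values of the 32 genes, 25 changed sign, in genes whose main difference was at most 0.125 in size, and 21 genes kept their sign throughout. With the replicate block H2-DMb2 turned to 0.018, H2-M3 to 0.052, Mr1 to 0.10, Psmb7 to 0.092, Psme1 to 0.030, Tap1 to 0.042 and Tapbpl to 0.023. With 1 sample left out Canx ran from -0.023 to 0.052, Cd1d1 from -0.032 to 0.097, H2-DMa from -0.047 to 0.041, H2-DMb2 from -0.018 to 0.008, H2-M3 from -0.077 to 0.003, Pdia3 from -0.015 to 0.073, Psme1 from -0.054 to 0.041, Psmb7 from -0.082 to 0.035, Tap1 from -0.094 to 0.051, Tap2 from -0.14 to 0.024 and Tapbpl from -0.16 to 0.015. The cause of these turns was not tested.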
